A study of Mus musculus with 30 samples.

Results

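Chemokines, cytokines and their receptors were followed through RNA sequencing libraries of mouse sciatic nerve axoplasm. Transcripts were taken by gene symbol: numbered Ccl, Cxcl, Ccr, Cxcr and Il genes, the Tnfrsf family, and Tnf, Osm, Osmr, Lif, Lifr, Csf1, Csf2, Csf3, Il6st and Cx3cr1, without the Ilf genes. This gave 119 transcripts of 98 genes among the 20423 transcripts of the 4 tables used. The genes were 24 chemokines, 12 chemokine receptors, 18 cytokines, 31 cytokine receptors, 2 soluble antagonists and 11 members of the TNF receptor family. By annotation, 98 of the transcripts were protein coding, 11 had a retained intron, 5 were targets of nonsense-mediated decay, 4 were processed transcripts and 1 was a polymorphic pseudogene. Lif, Csf2 and Csf3 were not analysed here.

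Axoplasm is the cytoplasm extracted from the nerve by gentle grinding, and it carries RNA of axons together with that of the cells around them. Nerves were naive or were taken 7 days after a crush, with 10 nerves pooled per library. The strain and age of the mice are not given in the labels. From each condition the study sequenced total RNA (input), RNA precipitated with an antibody against nucleolin (nucleolin IP) and RNA precipitated with an antibody against PTBP1 (PTBP1 IP). As controls, each antibody was first occupied by its blocking peptide (blocked IP). These were 10 groups of 3 libraries, described as independent biological repeats, and library totals ran from 7536033 to 22919174 counts. Nucleolin and PTBP1 are RNA-binding proteins of nucleus and cytoplasm, the former also a carrier of mRNAs in axons and the latter best known as a regulator of splicing at pyrimidine-rich sequences. Marker genes of myelinating Schwann cells summed to 25800 to 48600 CPM (counts scaled to the size of each library) in naive input and those of neurons and axons to 641 to 936 CPM, so the material held RNA of both.

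Chemokines are small secreted proteins that draw leukocytes along a gradient by binding G protein-coupled receptors. CXC chemokines with an ELR motif act mainly on neutrophils through Cxcr2, and many CC chemokines act on monocytes and macrophages through receptors such as Ccr1 and Ccr2. After a crush, the nerve stump beyond the injury degenerates while Schwann cells and recruited macrophages clear myelin, a process in which interleukin 1, TNF and the cytokines that signal through gp130 take part. In bulk material such as this, fewer cells of a type and less RNA per cell cannot be told apart.

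In input, cytokine and chemokine transcripts were called higher in injured nerve more often than lower. The input table listed 99 member transcripts of 88 genes, and 95 of them passed the filter on low counts. Of these, 47 were higher and 7 lower in injured nerve at an adjusted p under 0.05 (quasi-likelihood test of edgeR, p-values adjusted over all transcripts after Benjamini and Hochberg), or 49.5% and 7.37%. Among all 14095 transcripts tested, 14.5% were higher and 13.4% lower. The members' median log2 fold change was 1.41, against 0.00168 for all transcripts. Where the mean was 20 CPM or more, 24 of 32 members (75%) were higher, against 21% of all. The deposited input table holds only transcripts with at least 5 counts in injured libraries 2 and 3, so a member silenced by injury could not appear in it, and the count of falls is cut short. A member near 0 in naive nerve was listed through its injured counts alone, so it could appear only as a rise. Ccr7, Ccr9, Cxcl11 and Tnfrsf22 were listed but too low to test.

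By role, 11 of 23 chemokine transcripts tested were higher and 2 lower, and 7 of 11 chemokine receptor transcripts were higher. Of 17 cytokine transcripts, 6 were higher and 1 lower. Of 33 cytokine receptor transcripts, 14 were higher and 4 lower. In the TNF receptor family 7 of 9 were higher, and both soluble antagonists were higher. Among all transcripts tested, 14.5% were higher and 13.4% lower. The chemokine receptors and the TNF receptor family held no transcript called lower, but with 11 and 9 tested this cannot be told from the share of all. The naive and injured libraries did not overlap for 62 of the 95 members tested, and the share over all transcripts is not given here. Among the 54 called on these same libraries they did not overlap for 52, the exceptions being Cxcl10 and Il2rg. In 33 of the 54 the call held under all 11 alternative settings tried, and in 21 it was lost in at least 1. With library totals alone as the scaling, the median of all transcripts shifted to a log2 value of -0.262, and 846 of 2327 calls over the table were higher, against 2037 of 3924. Members called were then 32 higher and 5 lower.

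**Figure D1:**
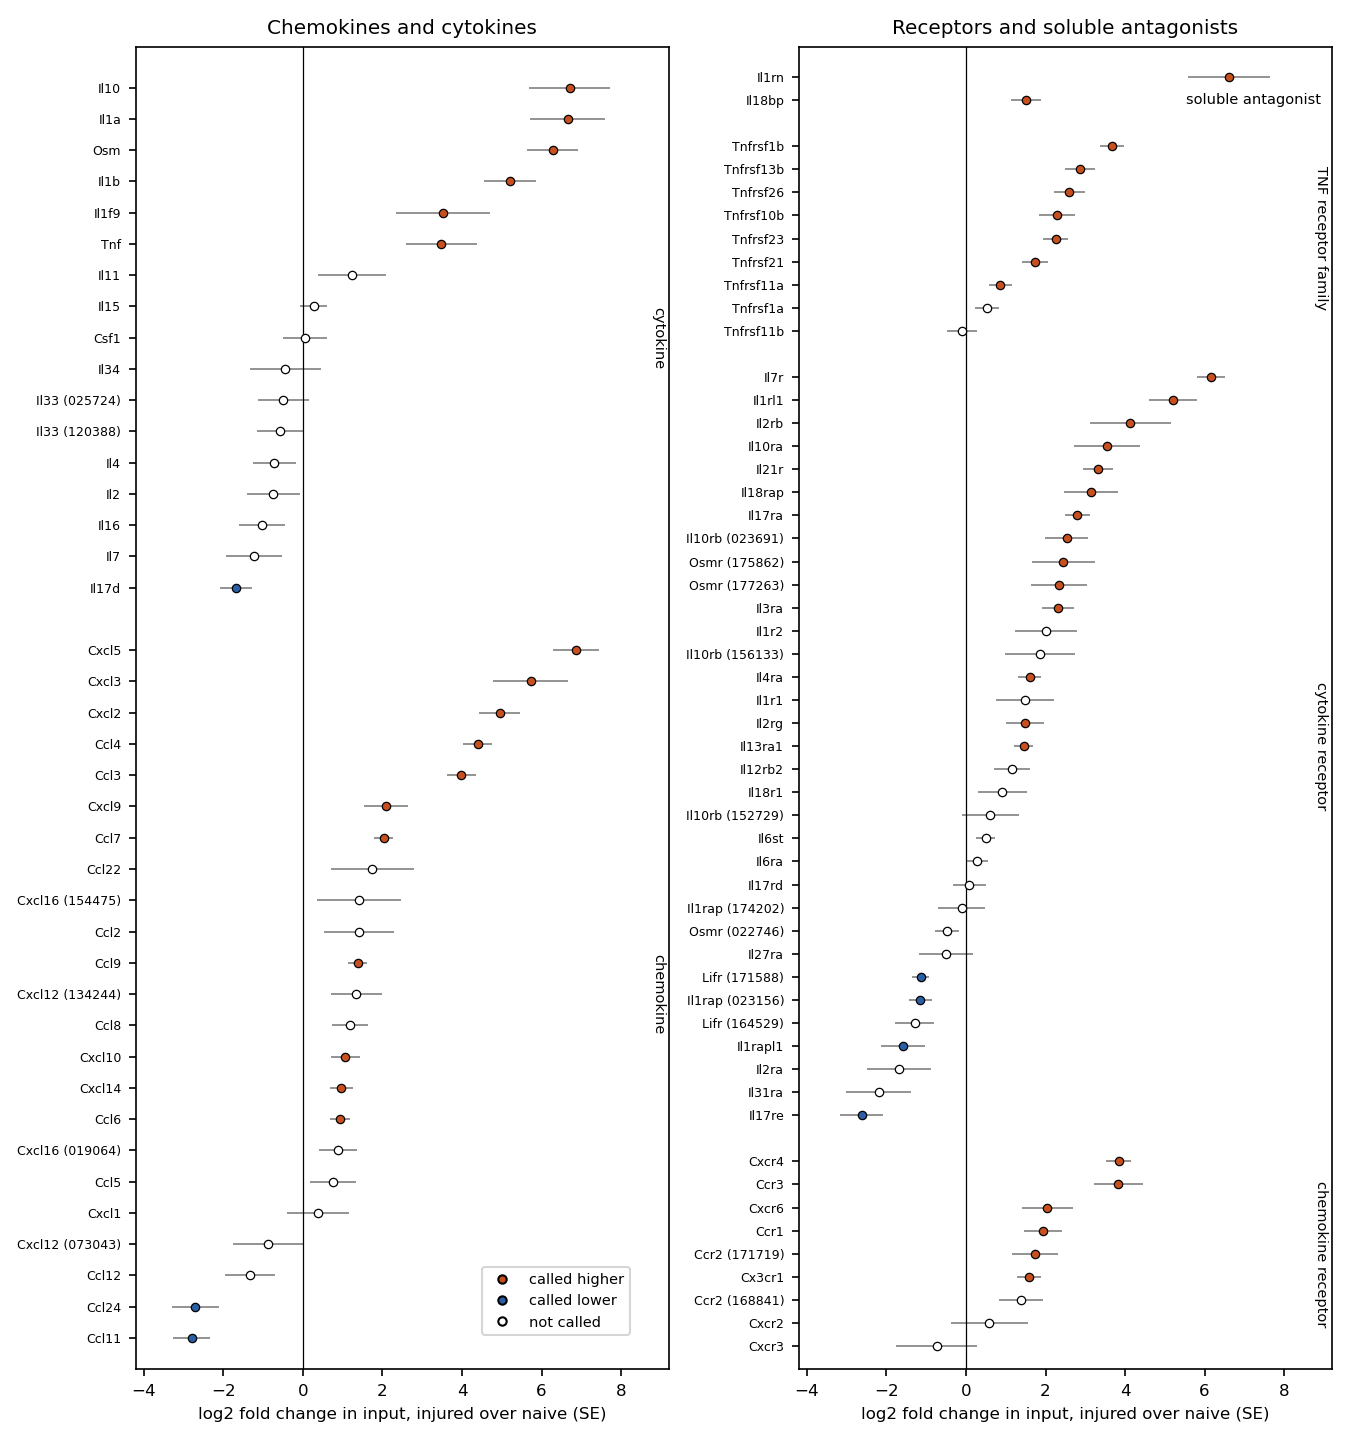
Log2 fold change of the tested member transcripts in input, apart from those of 1 gene not shown, injured over naive, with its standard error as a bar, grouped by role; symbols with several transcripts carry the last 6 digits of the Ensembl identifier. Most filled points lie to the right of 0, from 0.86 for Tnfrsf11a to 6.87 for Cxcl5, and 7 lie to the left.

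Of the 4 ELR chemokines measured, Cxcl5, Cxcl3 and Cxcl2 rose and Cxcl1 was not called. Their genes lie side by side on chromosome 5 (chr5:90759378-90905938 on GRCm38) in the order Cxcl5, Cxcl3, Cxcl1, Cxcl2. The stretches of promoter that carry a match to the kappa-B consensus, the sequence bound by NF-kappa-B, are shown for Cxcl3, Cxcl1 and Cxcl2. The match reads the same in Cxcl1, which did not pass, as in the others. Each is the 130 bases before the start of the RefSeq transcript on the plus strand of GRCm38.p6, with the shared 11 bases in capitals. The promoter of Cxcl5 was not analysed here.
Cxcl3, chr5:90785971-90786100: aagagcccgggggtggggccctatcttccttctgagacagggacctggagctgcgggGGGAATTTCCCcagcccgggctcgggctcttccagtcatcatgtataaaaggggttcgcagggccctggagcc
Cxcl1, chr5:90891115-90891244: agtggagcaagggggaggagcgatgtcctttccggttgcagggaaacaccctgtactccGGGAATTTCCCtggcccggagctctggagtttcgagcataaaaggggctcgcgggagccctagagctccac
Cxcl2, chr5:90903769-90903898: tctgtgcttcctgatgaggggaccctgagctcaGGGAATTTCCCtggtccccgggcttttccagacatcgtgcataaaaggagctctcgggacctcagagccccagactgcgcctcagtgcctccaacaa

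The same 11 bases hold 2 overlapping matches in each of these genes, the first starting 73 bases before the start of Cxcl3, 71 before that of Cxcl1 and 97 before that of Cxcl2. Cxcl5 measured 1.54, 0.888 and 0.154 CPM in the naive libraries and 69.5, 119 and 107 CPM in the injured ones. Cxcl3 went from 1.28, 0 and 0.102 CPM to 28.2, 18.9 and 23.7 CPM (log2 fold change 5.72, SE 0.94, edgeR adjusted p = 0.000835). Cxcl2 went from 1.8, 1.67 and 0.409 CPM to 39.3, 45.3 and 34.5 CPM (4.94, SE 0.52, edgeR adjusted p = 3.89e-05). In these 3 genes every injured library lay far above every naive one. Cxcl1 measured 2.89, 2.77 and 4.81 CPM in naive and 0.247, 3.79 and 9.03 CPM in injured input, and the groups overlapped (0.38, SE 0.78, edgeR adjusted p = 0.761). The highest Cxcl1 value and the lowest were both in injured libraries. Cxcl2 and Cxcl3 share 61 stretches of 50 bases with each other, 5.75% and 6.31% of those in each transcript, so reads there cannot be assigned to one of them.

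CC chemokines split within their gene blocks as well. On chromosome 11, the block of Ccl5, Ccl9, Ccl6, Ccl3 and Ccl4 (chr11:83525778-83664683) had 4 transcripts higher and 1 not called. Ccl4, a chemokine of activated macrophages, went from 4.24, 2.51 and 2.41 CPM to 71.2, 70.6 and 50.0 CPM (log2 fold change 4.39, SE 0.36, edgeR adjusted p = 7.76e-06). Ccl3, which binds Ccr1, went from 3.08, 2.51 and 2.20 CPM to 49.2, 42.3 and 32.4 CPM (3.99, SE 0.37, edgeR adjusted p = 1.64e-05). For both, the lowest injured library was above 10 times the highest naive one. Ccl9, a ligand of Ccr1, went from 236, 199 and 269 CPM to 496, 563 and 767 CPM (1.38, SE 0.24, edgeR adjusted p = 0.00117). Ccl6, another ligand of Ccr1, went from 145, 92.6 and 104 CPM to 194, 190 and 272 CPM (0.94, SE 0.25, edgeR adjusted p = 0.0145), and its call was lost without naive library 2 (adjusted p = 0.101). With library totals as the scaling, Ccl9 and Ccl6 were not called (adjusted p = 0.0886 and 0.312). Ccl5, which also binds Ccr1, stood at 3.72, 7.16 and 4.81 CPM against 4.45, 5.17 and 16.6 CPM, with overlapping groups (0.76, SE 0.58, edgeR adjusted p = 0.361).

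The neighbouring block of Ccl2, Ccl7, Ccl11, Ccl12 and Ccl8 (chr11:82035571-82116799) held 1 rise, 1 fall and 3 transcripts not called. Ccl7, a monocyte attractant that acts through Ccr2, went from 53.7, 69.3 and 50.1 CPM to 276, 226 and 205 CPM (log2 fold change 2.03, SE 0.24, edgeR adjusted p = 8.08e-05). Ccl2, the best known ligand of Ccr2, was low in both conditions, at 3.53, 1.31 and 0.205 CPM in naive and 8.65, 2.42 and 2.71 CPM in injured input (1.41, SE 0.88, edgeR adjusted p = 0.261). Its groups overlapped. Ccl8 stood at 61.8, 16.8 and 27.2 CPM against 44.0, 81.6 and 115 CPM (1.19, SE 0.45, edgeR adjusted p = 0.067), and Ccl12 at 11.5, 16.6 and 5.58 CPM against 1.24, 3.39 and 8.26 CPM (-1.33, edgeR adjusted p = 0.142). Ccl8 was called higher without naive library 1 (1.86, adjusted p = 0.00671), without injured library 1 (1.40, 0.0445) and by DESeq2 (0.0411), and Ccl12 was called lower without injured library 3 (-2.20, adjusted p = 0.0353).

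Both eotaxins measured were the chemokines that fell. Ccl11, which attracts eosinophils through Ccr3, was the most abundant member per kilobase of transcript in naive nerve. It measured 568, 721 and 818 CPM there and 46.5, 57.7 and 198 CPM after injury (log2 fold change -2.79, SE 0.47, edgeR adjusted p = 0.000918). Ccl24 measured 15.7, 26.6 and 31.2 CPM and then 0.494, 5.08 and 5.01 CPM (-2.70, SE 0.59, edgeR adjusted p = 0.00497). Neither gene's groups overlapped, and both calls held in all 11 alternatives. Their receptor Ccr3 moved the other way, from 0.771, 0.784 and 0.256 CPM to 7.17, 9.12 and 9.50 CPM (3.83, SE 0.62, edgeR adjusted p = 0.000771).

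Among the remaining chemokines, Cxcl9 and Cxcl10, which interferon gamma induces and which bind Cxcr3, were called higher. Cxcl9 went from 4.24, 2.51 and 8.80 CPM to 9.40, 29.5 and 26.4 CPM (log2 fold change 2.08, SE 0.55, edgeR adjusted p = 0.014), a call that was lost without injured library 2 (adjusted p = 0.0731) or naive library 2 (0.0637). Cxcl10 stood at 16.4, 26.6 and 24.7 CPM against 23, 60.0 and 58.5 CPM, with overlapping groups (1.07, SE 0.37, edgeR adjusted p = 0.049), and its call was lost in 8 of 11 alternatives. Cxcl14, a chemokine of resting tissues, went from 32.0, 26.5 and 40.4 CPM to 51.2, 84.4 and 57.4 CPM (0.97, SE 0.29, edgeR adjusted p = 0.0245), and was not called without injured library 2, naive library 1 or naive library 2 (adjusted p = 0.14, 0.0613 and 0.141) or with library totals as the scaling (0.313). Of the 2 transcripts of Cxcl12, the ligand of Cxcr4, ENSMUST00000134244 had a log2 fold change of 1.34 and ENSMUST00000073043 one of -0.88, and neither passed the test.

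The pro-inflammatory cytokines of the interleukin 1 family were close to 0 in naive nerve. Il1a had counts in 1 naive library, at 0.307 CPM, and measured 10.4, 10.0 and 14.9 CPM after injury. Being near 0 in naive nerve, it was listed through its injured counts and could appear only as a rise. Il1b went from 0.128, 0.784 and 0.716 CPM to 12.9, 32.1 and 17.3 CPM (log2 fold change 5.22, SE 0.66, edgeR adjusted p = 0.000136). The 2 genes lie in 1 stretch of chromosome 2 (chr2:129299610-129371139), and no naive library of either came near an injured one. Il1f9, an epithelial relative of the family now called Il36g, was called higher at 5.19, 2.74 and 4.42 CPM against 1.09, 0 and 0 CPM, but lost the call in 7 of 11 alternatives. Il33, an alarmin that signals through Il1rl1, had 2 transcripts measured, with log2 fold changes of -0.49 and -0.58, and neither passed.

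Osm and Tnf also rose. Oncostatin M, a gp130 cytokine encoded by Osm, went from 0.321, 0.157 and 0.102 CPM to 14.6, 20.9 and 10.3 CPM (log2 fold change 6.28, SE 0.65, edgeR adjusted p = 3.56e-05). Tnf, the central trigger of the acute response, stayed low in every library: 0.578, 0.0522 and 0.358 CPM in naive and 1.48, 6.86 and 2.54 CPM in injured input (3.48, SE 0.89, edgeR adjusted p = 0.0118). Its call was lost without injured library 2 (adjusted p = 0.101) and without naive library 2 (0.0513). The anti-inflammatory cytokine Il10 had 1 count in the 3 naive libraries together and measured 2.23, 3.79 and 2.30 CPM after injury. Counting error alone places this 154.4-fold excess between 27.1 and 6162 (edgeR adjusted p = 0.000518). With almost no naive counts, Il10 was listed through its injured counts alone, so only a rise could appear. Il17d, an interleukin 17 relative made by tissue cells, fell from 19.6, 18.5 and 26.0 CPM to 4.20, 8.72 and 6.84 CPM (-1.68, SE 0.40, edgeR adjusted p = 0.00803).

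The other 10 cytokine transcripts tested in input were not called. They included Csf1, the growth factor of macrophages, at 2.89, 6.37 and 13.1 CPM against 10.4, 6.62 and 6.55 CPM, and its fellow Csf1r ligand Il34, whose values also overlapped. Il15, Il7, Il2, Il4, Il16 and Il11 had log2 fold changes between -1.23 and 1.24. Il34 and Il4 were listed throughout only as processed transcripts, ENSMUST00000154803 and ENSMUST00000127858, so their coding mRNAs were not measured. Il6 was listed only in the injured nucleolin table, at 3.27, 3.80 and 0.826 CPM in the IP and 0, 14.2 and 2.72 CPM in the blocked IP.

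Both soluble antagonists measured rose. Il1rn, which occupies the interleukin 1 receptor without signalling, had 2 counts over the naive libraries and measured 2.23, 5.00 and 5.72 CPM after injury. Counting error alone places this 136.5-fold excess between 37.2 and 1137 (edgeR adjusted p = 0.000551). Il1rn too was listed through its injured counts alone, so only a rise could appear. Il18bp, a soluble trap for interleukin 18, went from 7.19, 6.95 and 9.21 CPM to 15.3, 24.0 and 26.7 CPM (log2 fold change 1.51, SE 0.38, edgeR adjusted p = 0.0104), a call lost without naive library 2 (adjusted p = 0.0653) and with library totals as the scaling (0.111). The decoy receptor Il1r2 stood at 0.449, 4.18 and 0.716 CPM against 10.4, 6.78 and 4.96 CPM, with separate groups, and did not pass (2.02, SE 0.78, edgeR adjusted p = 0.0727). Without naive library 2, its highest naive value, it was called (3.60, adjusted p = 0.00817), as it was by DESeq2 (0.0217). The signalling receptor Il1r1 was low, with a log2 fold change of 1.49 (edgeR adjusted p = 0.151). The co-receptor Il1rap fell, in the transcript ENSMUST00000023156, from 166, 128 and 129 CPM to 54.1, 46.1 and 90.5 CPM (-1.14, SE 0.28, edgeR adjusted p = 0.00954). That call was lost without injured library 2 (adjusted p = 0.0554) and with library totals as the scaling (0.0537). Its second transcript, ENSMUST00000174202, was not called (-0.11, edgeR adjusted p = 0.915).

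**Figure D2:**
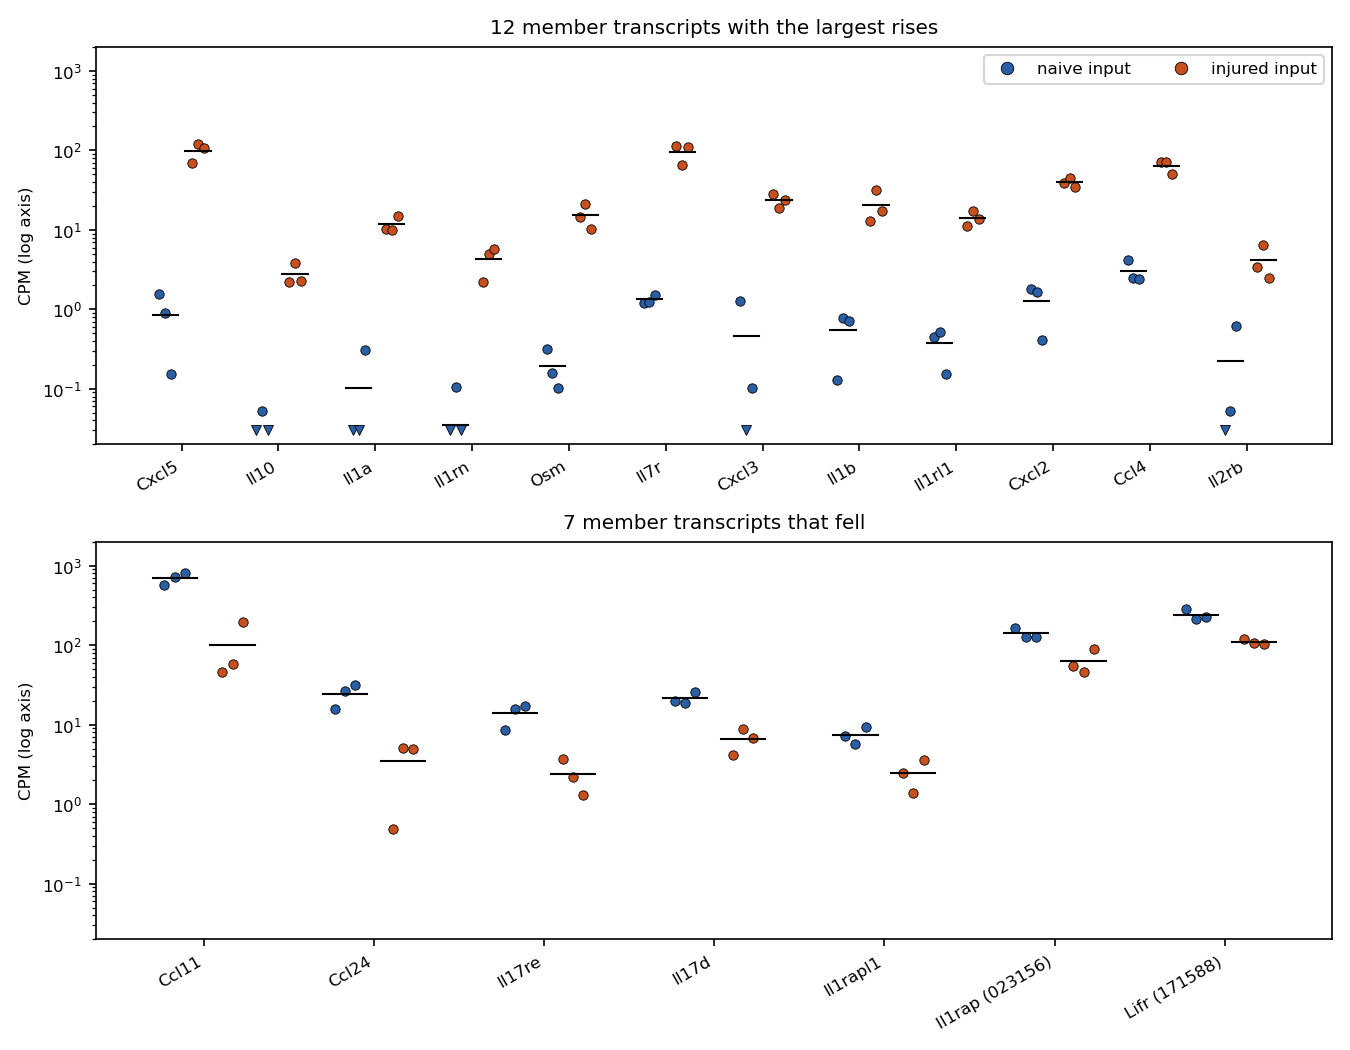
CPM in each input library (log axis) of the 12 member transcripts with the largest rises and of the 7 that fell; each point is 1 library, bars are means of 3, and triangles are values under 0.03 CPM drawn at 0.03. Naive and injured points are separate in all 19 transcripts.

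Cxcr4 had the highest level per kilobase among chemokine receptors in injured nerve. This receptor of Cxcl12 measured 8.67, 9.61 and 13.7 CPM in naive and 206, 141 and 113 CPM in injured input (log2 fold change 3.84, SE 0.32, edgeR adjusted p = 7.83e-06). Receptors of monocytes and macrophages were called with smaller log2 fold changes. Ccr1 went from 24.3, 5.90 and 10.1 CPM to 36.6, 45.4 and 71.5 CPM (1.94, SE 0.47, edgeR adjusted p = 0.00898), and Cx3cr1, the receptor of fractalkine, from 15, 27 and 22 CPM to 73.2, 66.9 and 52.1 CPM (1.58, SE 0.30, edgeR adjusted p = 0.00191). With library totals as the scaling Cx3cr1 was not called (adjusted p = 0.068). For Ccr2 1 of 2 transcripts passed, and both did without injured library 1 (ENSMUST00000168841, adjusted p = 0.0483). Ccr2 ENSMUST00000171719 went from 1.73, 1.62 and 2.05 CPM to 4.45, 3.87 and 9.62 CPM (1.74, edgeR adjusted p = 0.0392), a call lost in 6 of 11 alternatives, and 4.96% of its 50-base stretches also occur in another gene. Cxcr2, the receptor of the ELR chemokines, was not called, at 4.49, 0.209 and 0.409 CPM against 3.71, 2.26 and 1.83 CPM, but was called higher without naive library 1 (log2 fold change 2.99, adjusted p = 0.0268).

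The interleukin 7 receptor chain, which T cells and several innate cells carry, measured 1.22, 1.25 and 1.54 CPM in naive and 114, 64.8 and 110 CPM in injured nerve (log2 fold change 6.16, SE 0.36, edgeR adjusted p = 1.3e-06). Its ligand Il7 stood at 1.16, 3.08 and 5.17 CPM against 1.73, 0.888 and 1.47 CPM and did not pass. Il1rl1, the gene of the interleukin 33 receptor, was measured in input only as its shorter transcript ENSMUST00000173514, of 8 exons. That transcript went from 0.449, 0.522 and 0.154 CPM to 11.1, 17.4 and 13.7 CPM (5.21, SE 0.61, edgeR adjusted p = 8.1e-05). The longer transcript ENSMUST00000097772, of 11 exons, was not listed in input, so the rise is that of the shorter form alone. Its place among the cytokine receptors was given by gene symbol and not by the form measured. Il2rb, a chain of the receptors for interleukins 2 and 15, went from 0, 0.0522 and 0.614 CPM to 3.46, 6.54 and 2.48 CPM (4.14, SE 1.03, edgeR adjusted p = 0.00997), a call lost without injured library 2 (adjusted p = 0.0616).

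Receptor chains for anti-inflammatory and type 2 cytokines rose too. Il10ra, the ligand-binding chain for interleukin 10, measured 0.0642, 0.418 and 0.768 CPM and then 7.66, 5.25 and 2.54 CPM (log2 fold change 3.55, SE 0.83, edgeR adjusted p = 0.00698). Il4ra, shared by the receptors of interleukins 4 and 13, went from 20.5, 12.4 and 16.7 CPM to 51.4, 53.0 and 46.5 CPM (1.61, SE 0.29, edgeR adjusted p = 0.00164). Its partner Il13ra1 went from 39.4, 51.1 and 42.2 CPM to 104, 115 and 144 CPM (1.46, SE 0.24, edgeR adjusted p = 0.000892). With library totals as the scaling neither was called (adjusted p = 0.0584 and 0.0665). Il21r had a log2 fold change of 3.32, Il18rap of 3.15, Il17ra of 2.80 and Il3ra of 2.31, all called higher in every alternative. Il2rg was called (1.48, edgeR adjusted p = 0.0341) with overlapping groups and lost the call in 6 of 11 alternatives (adjusted p up to 0.155), and 42% of its 50-base stretches also occur in the overlapping gene model Gm20489.

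Among the receptors for interleukin 6, LIF and oncostatin M, which signal through gp130, Lifr fell and the coding transcripts of the others were not called. Il6st, which encodes gp130 itself, measured 325, 361 and 511 CPM in naive and 492, 566 and 631 CPM in injured input, with overlapping groups (log2 fold change 0.50, SE 0.23, edgeR adjusted p = 0.137). Without naive library 3 it was called higher (0.71, adjusted p = 0.046). Il6ra stood at 44.1, 42.4 and 45.1 CPM against 44.8, 43.4 and 72.2 CPM and was not called. Lifr fell, in ENSMUST00000171588, from 283, 214 and 226 CPM to 121, 106 and 102 CPM (-1.14, SE 0.22, edgeR adjusted p = 0.00224). The coding transcript of Osmr, the oncostatin M receptor, stood at 71.2, 61.3 and 60.6 CPM against 35.6, 34.5 and 67.7 CPM and did not pass (-0.48, edgeR adjusted p = 0.255), though it did, as lower, without injured library 3 (-0.89, adjusted p = 0.0314). The 2 Osmr transcripts called higher, ENSMUST00000175862 and ENSMUST00000177263, are retained-intron forms under 7 CPM in every input library, and each lost its call in 6 or 7 of 11 alternatives. Il17re, a receptor chain for interleukin 17C, and Il1rapl1, a neuronal relative of Il1rap, also fell. Il17re went from 8.48, 15.9 and 17.4 CPM to 3.71, 2.18 and 1.30 CPM (-2.62, edgeR adjusted p = 0.00364). Il1rapl1 fell by 1.57 on the log2 scale (edgeR adjusted p = 0.0498), and 6 of 11 alternatives did not call it.

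In the TNF receptor family the inducible receptor moved and the constitutive one did not pass. Tnfrsf1b, which encodes TNFR2 of leukocytes, measured 24.2, 17.1 and 13.9 CPM in naive and 253, 276 and 176 CPM in injured input (log2 fold change 3.68, SE 0.30, edgeR adjusted p = 6.81e-06). Tnfrsf1a, which encodes TNFR1 of most cells, stood at 51.6, 77.8 and 119 CPM against 104, 153 and 102 CPM (0.53, SE 0.31, edgeR adjusted p = 0.223). Per kilobase of transcript, the mean level was 4.82 CPM for Tnfrsf1b and 38.4 CPM for Tnfrsf1a in naive nerve, and 61.6 and 55.6 CPM in injured nerve. Tnfrsf13b, a receptor for the B cell factors BAFF and APRIL, went from 5.71, 4.28 and 4.55 CPM to 37.6, 45.1 and 24.2 CPM (2.87, SE 0.37, edgeR adjusted p = 0.000169). Tnfrsf21, death receptor 6, went from 18, 14.3 and 16.2 CPM to 37.1, 73.7 and 50.5 CPM (1.74, SE 0.32, edgeR adjusted p = 0.00161). Tnfrsf10b, the mouse TRAIL receptor, the decoy Tnfrsf23 and the family member Tnfrsf26 had log2 fold changes of 2.28, 2.25 and 2.60. The Tnfrsf23 transcript measured is annotated as a target of nonsense-mediated decay. Tnfrsf23 shares 21.8% of its 50-base stretches with Tnfrsf22, so their counts are uncertain. Tnfrsf11b, osteoprotegerin, was not called, and Tnfrsf11a (0.86, edgeR adjusted p = 0.0427) lost its call in 9 of 11 alternatives. Tnfrsf12a was not analysed here.

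Per kilobase of transcript, the order of the levels changed with injury. In naive input Ccl11 led with 649 CPM per kilobase, followed by Ccl6 (79.1), Ccl9 (78.1), Ccl7 (72.1) and Ccl8 (69.0), which lie closer together than the spread of their libraries. In injured input Ccl7 led with 294, followed by Ccl9 (202), Ccl8 (157), Ccl6 (152), Ccl4 (96.9), Ccl11 (93.2) and Cxcr4 (85.0 CPM per kilobase). The 99 listed members summed to 2541, 2537 and 2922 CPM in naive and 3898, 4250 and 4499 CPM in injured input.

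Sequence features that cytokine genes are known for were counted next. The kappa-B consensus was found, on either strand, in 14 of 85 RefSeq promoters of 71 member genes (16.5%), against 8.46% of all 32851 promoters of 300 bases. Among members called higher in input it was in 7 of 37 (18.9%), and among the other input members in 6 of 38 (15.8%). Beside the 3 printed, those with a match are Ccl9, Ccr1, Ccr3, Cxcl10 and Il4ra, which were called higher, Csf1, Il12rb2, Il16, Il1r1 and Il2ra, which were not called in input, and Il6. The AP-1 motif TGANTCA, searched on both strands, was in 16.5% of member promoters and 7.81% of all, in 18.9% of those called higher and in 5.26% of the other input members. A match describes the letters in the window and not a bound site.

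Many short-lived cytokine mRNAs carry AU-rich elements in the 3′ untranslated region, where repeats of ATTTA are read by decay and stability factors. The densest 30 bases of such repeats are shown for 4 ligands with different outcomes in input, read from GENCODE transcripts on GRCm38, 5′ to 3′ on the strand of the gene, with each ATTTA in capitals.
Cxcl2, chr5:90905327-90905356, plus strand: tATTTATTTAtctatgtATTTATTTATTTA
Cxcl1, chr5:90892602-90892631, plus strand: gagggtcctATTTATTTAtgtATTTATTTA
Tnf, chr17:35199679-35199708, minus strand: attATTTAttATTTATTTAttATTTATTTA
Il1b, chr2:129364808-129364837, minus strand: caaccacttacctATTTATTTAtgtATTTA

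Over the whole 3′ untranslated region, ATTTA occurred 11 times in Cxcl2, 8 times in Tnf, 7 in Cxcl1 and 6 in Il10. The double repeat ATTTATTTA, searched on the strand of the transcript, was in 6 of 36 coding ligand transcripts of the input table (16.7%) and in 1 of 52 receptors and antagonists (1.92%), against 6.38% of all 10357 coding transcripts. It was in 4 of 44 members called higher (9.09%) and in 0 of 7 called lower. Zfp36, which promotes the decay of AU-rich mRNAs, was higher in injured input (log2 fold change 1.23, SE 0.28, edgeR adjusted p = 0.00572), as were the RNase Zc3h12a (1.66, edgeR adjusted p = 0.0363) and roquin-1, encoded by Rc3h1 (1.16, edgeR adjusted p = 0.00226). The other 9 of the 12 AU-rich mRNA regulators listed were not called, where 14.5% of all transcripts were called higher.

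Genes that act around these ligands and receptors were taken from a list of 102 signalling genes, of which 66 were tested in input. Of these, 20 were higher and 5 lower, with a median log2 fold change of 0.66, beside 14.5% higher and 13.4% lower among all transcripts. Transcription factors among those that rose were Irf8 (2.93, edgeR adjusted p = 3.36e-05), needed for the macrophage lineage, Cebpb (2.10), Nfkb1 (2.12) and Rel (2.28). Chuk, a kinase of the NF-kappa-B pathway, had a log2 fold change of 2.56, the feedback inhibitor Socs3 of 1.45, and the chain shared by the receptors of interleukin 3, interleukin 5 and GM-CSF, Csf2rb, of 1.51. Cx3cl1, the ligand of Cx3cr1, rose by 1.56 on the log2 scale. All 3 atypical chemokine receptors measured, which bind chemokines without G protein signalling, fell: Ackr1 by 2.11, Ackr2 by 3.26 and Ackr3, a second receptor of Cxcl12, by 2.46 on the log2 scale (edgeR adjusted p = 0.00135, 0.00705 and 0.000762). Stat3, Jak1, Rela and Nfkbia were not called, with log2 fold changes between 0.17 and 0.54.

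Markers of several cell types, though not of all, moved with the members in input. Of 12 macrophage markers 9 were higher, and their summed level was 1100 to 1890 CPM in naive and 8080 to 10800 CPM in injured libraries. Neutrophil markers, 4 of 5 higher, went from 2.35 to 10.1 CPM up to 90.5 to 156 CPM, and the member Cxcr2 is on that list. T and NK cell markers, 1 of 5 higher, summed to 3.79 to 9.95 CPM and 18.8 to 24.6 CPM, and no B cell marker was measured. Mast cell markers, 4 of 4 lower, went from 154 to 182 CPM down to 13.7 to 39.3 CPM, adipocyte markers (3 of 3 lower) from 1150 to 1290 CPM down to 24.0 to 58.8 CPM, and skeletal muscle markers (4 of 4 lower) from 623 to 1060 CPM down to 23.6 to 109 CPM. Of 6 myelinating Schwann cell markers 5 were lower and 1 higher, and they summed to 4490 to 6890 CPM in injured libraries. Neuron and axon markers (2 of 6 lower, 1 higher) summed to 143 to 191 CPM there. Fibroblast markers (2 of 4 lower) summed to 8130 to 10800 CPM in naive and 7200 to 8870 CPM in injured nerve, and repair Schwann cell markers (2 of 5 higher) to 143 to 172 CPM and 176 to 238 CPM. Endothelial markers, 1 higher and 1 lower of 6, summed to 292 to 434 CPM and 290 to 438 CPM. The part of these shifts in the members' changes was not tested.

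In the nucleolin IP, Cxcl2, Tnfrsf1b and Cxcr4 were called higher in injured than in naive nerve, as shares of each library. Over the 71 members found in both nucleolin tables, 3 were higher in injured than in naive nucleolin IP and 0 lower (4.23%), against 0.397% of all 11840 transcripts called higher. Cxcl2 measured 0.463, 1.61 and 1.40 CPM in naive and 72.7, 80.4 and 50.0 CPM in injured IP (log2 fold change 5.85, SE 0.95, edgeR adjusted p = 0.0242). Tnfrsf1b measured 42.7, 42.2 and 41.3 CPM and then 601, 505 and 350 CPM (3.53, SE 0.65, edgeR adjusted p = 0.0317). Cxcr4 measured 13, 8.17 and 11.5 CPM and then 131, 114 and 129 CPM (3.52, SE 0.69, edgeR adjusted p = 0.0377). In all 3 the injured libraries stood well apart from the naive ones. The members' median log2 fold change was 0.89, against -0.083 for all transcripts. An unadjusted p under 0.05 was found for 21 members, among 1466 of all 11840 transcripts. The calls rest on all 6 libraries: leaving out any 1 left 0 members called, except injured IP 3, without which Cxcl2 alone was called. The highest adjusted p was then 0.14 for Cxcl2 (without injured IP 2), 0.17 for Tnfrsf1b (without injured IP 2) and 0.184 for Cxcr4 (without naive IP 2).

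In the blocked nucleolin IP Cxcl2 was called as well, with Tnfrsf13b and Il21r. Here 3 of 71 members were higher in injured nerve (4.23%), against 0.735% of all transcripts. Cxcl2 measured 2.97, 1.02 and 0.462 CPM in naive and 31.6, 122 and 55.8 CPM in injured blocked IP (log2 fold change 5.55, SE 0.93, edgeR adjusted p = 0.0199). Tnfrsf13b measured 0.523, 2.99 and 2.37 CPM and then 70.3, 21.8 and 46.1 CPM (4.55, SE 0.98, edgeR adjusted p = 0.0404). Il21r measured 11.1, 24.8 and 16.3 CPM and then 324, 81.1 and 101 CPM (3.28, SE 0.74, edgeR adjusted p = 0.0465). Naive and injured libraries of these 3 did not overlap. Without naive blocked IP 2 or injured blocked IP 2 no member was called (adjusted p of Cxcl2 0.0533 and 0.0617). Tnfrsf13b was not called without any 1 of the 6 libraries (adjusted p up to 0.0958), and Il21r was called only when injured blocked IP 3 was left out (otherwise adjusted p up to 0.144). Tnfrsf1b and Cxcr4, called in the nucleolin IP, measured 193, 30.4 and 31.8 CPM against 258, 307 and 245 CPM, and 77.6, 18.8 and 12.6 CPM against 171, 62.4 and 132 CPM, in the blocked libraries (edgeR adjusted p = 0.159 and 0.163). Naive blocked library 1 was the highest naive value of both, and without it both were called (log2 fold change 3.13 and 2.98, edgeR adjusted p = 0.0134 and 0.0358). Macrophage markers summed to 1250 to 1950 CPM in naive and 4830 to 12900 CPM in injured nucleolin IP, and to 1620 to 2670 CPM and 4580 to 11500 CPM in the blocked libraries. Their part in these changes was not tested.

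In the PTBP1 libraries Cxcl5 was the 1 member of 93 tested that passed, both with the open and with the blocked antibody. It had no count in the 3 naive PTBP1 IP libraries and measured 76.8, 49.8 and 181 CPM in injured PTBP1 IP (edgeR adjusted p = 0.0205). That call was 1.08% of the members and the only 1 among all 14540 transcripts (0.00688%), so both shares count the same transcript. Each transcript listed with PTBP1 had 5 counts in every library of at least 1 group, which Cxcl5 had only in injured nerve. In the blocked libraries Cxcl5 measured 0, 0 and 0.04 CPM (1 count) in naive and 71.5, 116 and 164 CPM in injured nerve (edgeR adjusted p = 0.0261). There 3 of all 14540 transcripts (0.0206%) were called higher, Cxcl5 among them. The call in the PTBP1 IP was lost without injured IP 1, naive IP 1 or naive IP 2, and that in the blocked libraries without injured 2, naive 1 or naive 2, with adjusted p up to 0.15 and 0.0861. In the injured nucleolin table Cxcl5 measured 40.0, 36.9 and 109 CPM in the IP and 121, 35.1 and 99.7 CPM in the blocked IP. Over the 5 injured groups, each table scaled by itself, its libraries ran from 35.1 to 181 CPM.

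Counting Cxcl5, 19 members had an unadjusted p under 0.05 in the PTBP1 IP and 38 in the blocked libraries. Over all 14540 transcripts these numbers were 1499 and 3150. The members' median log2 fold change was 1.48 in the PTBP1 IP and 2.31 in the blocked IP, against -0.137 and -0.0052 for all transcripts. The members given next were chosen after their values were seen. Il1rn had no count in naive PTBP1 IP and measured 5.82, 9.72 and 3.82 CPM in injured IP (edgeR adjusted p = 0.255). Il1rl1 ENSMUST00000173514 measured 0, 0 and 0.199 CPM against 50.4, 28.9 and 16.5 CPM (edgeR adjusted p = 0.274), and Cxcl2 0.323, 0 and 2.19 CPM against 30.4, 59.3 and 56.3 CPM (edgeR adjusted p = 0.265). Cxcl13, a B cell attractant, had a negative fold: 0, 4.40 and 46.0 CPM in naive and no count in injured PTBP1 IP, and 72.4, 46.5 and 10.7 CPM in naive and no count in injured blocked IP (edgeR adjusted p = 0.265 and 0.121). The groups were separate for Il1rn, Il1rl1 and Cxcl2, and overlapped for Cxcl13 in the PTBP1 IP. In the blocked libraries the next lowest p belonged to Tnfrsf10b, at 0, 0.0556 and 0.0799 CPM in naive and 17.1, 46.2 and 35.5 CPM in injured nerve (edgeR adjusted p = 0.0904). Macrophage markers summed to 853 to 1530 CPM in naive and 3310 to 8460 CPM in injured PTBP1 IP, and their part was not tested.

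**Figure D3:**
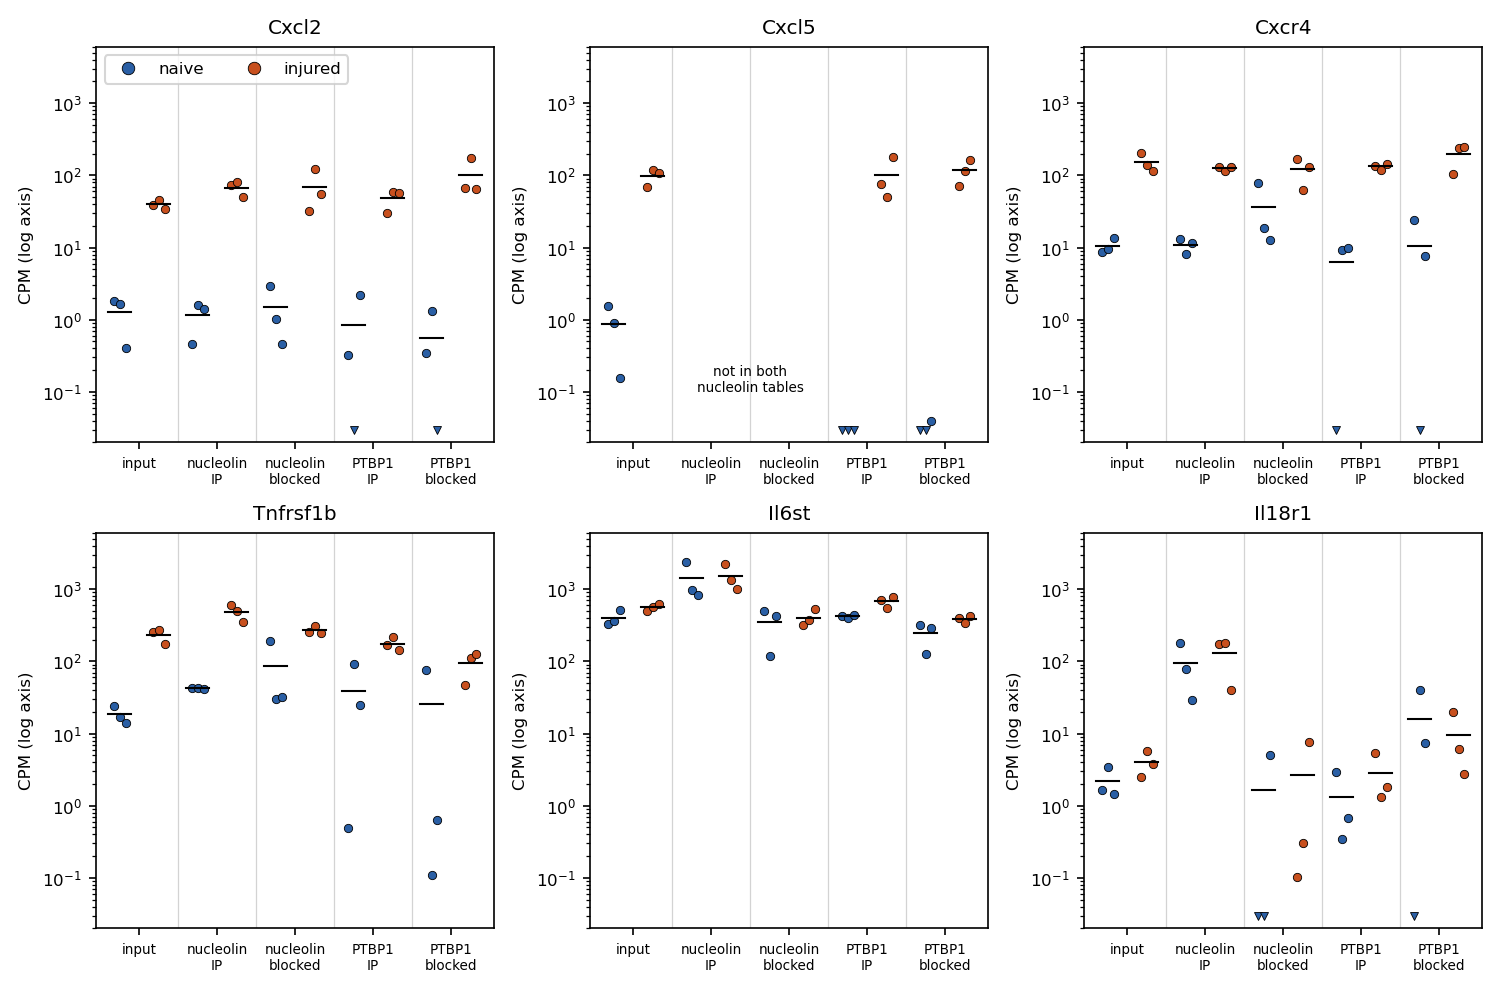
CPM (log axis) of 6 members in every library of the 10 groups, naive beside injured; each point is 1 library, bars are means of 3, and triangles are values under 0.03 CPM drawn at 0.03. Injured points of Cxcl2 lie above the naive ones in all 5 kinds of library, those of Cxcr4 overlap in the blocked nucleolin IP, and every nucleolin IP point of Il6st and Il18r1 lies above the blocked points of the same condition.

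Nucleolin IP against blocked nucleolin IP asks which mRNAs the antibody recovered above its own background. No member passed this test in naive or injured nerve, and none did among all 11840 transcripts (0% in each). Unadjusted p-values under 0.05 numbered 10 members in naive nerve and 4 in injured nerve, among 1422 and 769 over all transcripts, and DESeq2 called 6 and 1 members. Il6st was among the 5 members of lowest p in both conditions. It measured 2409, 967 and 840 CPM in naive nucleolin IP against 499, 119 and 426 CPM in the blocked IP (log2 fold change 2.01, SE 0.59, edgeR adjusted p = 0.155). In injured nerve it measured 2257, 1356 and 1018 CPM against 316, 370 and 526 CPM (1.93, SE 0.59, edgeR adjusted p = 0.313). The lowest IP library was above the highest blocked one in both conditions.

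Il18r1, the ligand-binding chain for interleukin 18, was among them in both conditions too. It measured 177, 79.4 and 29 CPM in naive nucleolin IP against 0, 0 and 4.97 CPM in the blocked IP (log2 fold change 5.84, SE 1.96, edgeR adjusted p = 0.224). In injured nerve it measured 172, 179 and 40.0 CPM against 0.102, 0.300 and 7.58 CPM (5.62, SE 1.93, edgeR adjusted p = 0.421), and this was the 1 member that DESeq2 called there. In input it stood at 1.43 to 3.40 CPM in naive and 2.47 to 5.81 CPM in injured nerve. In each condition the library numbered 3 had the lowest IP value and the highest blocked value. Without naive blocked IP 3, Il18r1 and Il1r2 passed in naive nerve.

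Other members of lowest p in naive nerve were Il1r2, Tnfrsf10b and a retained-intron transcript of Il10rb. Il1r2 measured 0, 0 and 0.813 CPM in the nucleolin IP against 86.7, 5.25 and 11.8 CPM in the blocked IP (log2 fold change -6.90, SE 1.67, edgeR adjusted p = 0.0924), and it alone passed without naive IP 3. Tnfrsf10b measured 22.3, 11.1 and 8.28 CPM against 0, 1.02 and 1.21 CPM (4.21, SE 1.21, edgeR adjusted p = 0.146). The Il10rb transcript ENSMUST00000152729 measured 36.5, 24.0 and 4.43 CPM against no count in the blocked IP, at least 353-fold higher when the blocked group is set to 3 counts (edgeR adjusted p = 0.0924), and 36.5% of its 50-base stretches also occur in Gm21970. In injured nerve the next members were Il1rap ENSMUST00000023156, at 97.6, 66.1 and 117 CPM against 24.9, 22.4 and 55.5 CPM (1.45, edgeR adjusted p = 0.555), and Tnfrsf11a, at 193, 213 and 108 CPM against 78.3, 13.1 and 40.1 CPM (1.97, edgeR adjusted p = 0.719), then the same Il10rb transcript (3.57, edgeR adjusted p = 0.85). The groups of all these members were separate, and none passed the adjusted threshold.

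Whether injury altered the excess of IP over blocked IP was tested as an interaction. No member and no transcript in the nucleolin tables passed (0%), with 4 members and 302 transcripts at an unadjusted p under 0.05. The members of lowest p were Il1r2 (difference of log2 fold changes 7.25, SE 2.02), Il10rb ENSMUST00000152729 (-7.77, SE 2.78), Osmr ENSMUST00000177263 (-6.60, SE 2.66), Tnfrsf1b (1.86, SE 0.84) and Tnfrsf10b (-3.31, SE 1.54), each with an edgeR adjusted p of 1. DESeq2 called Il1r2.

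**Figure D4:**
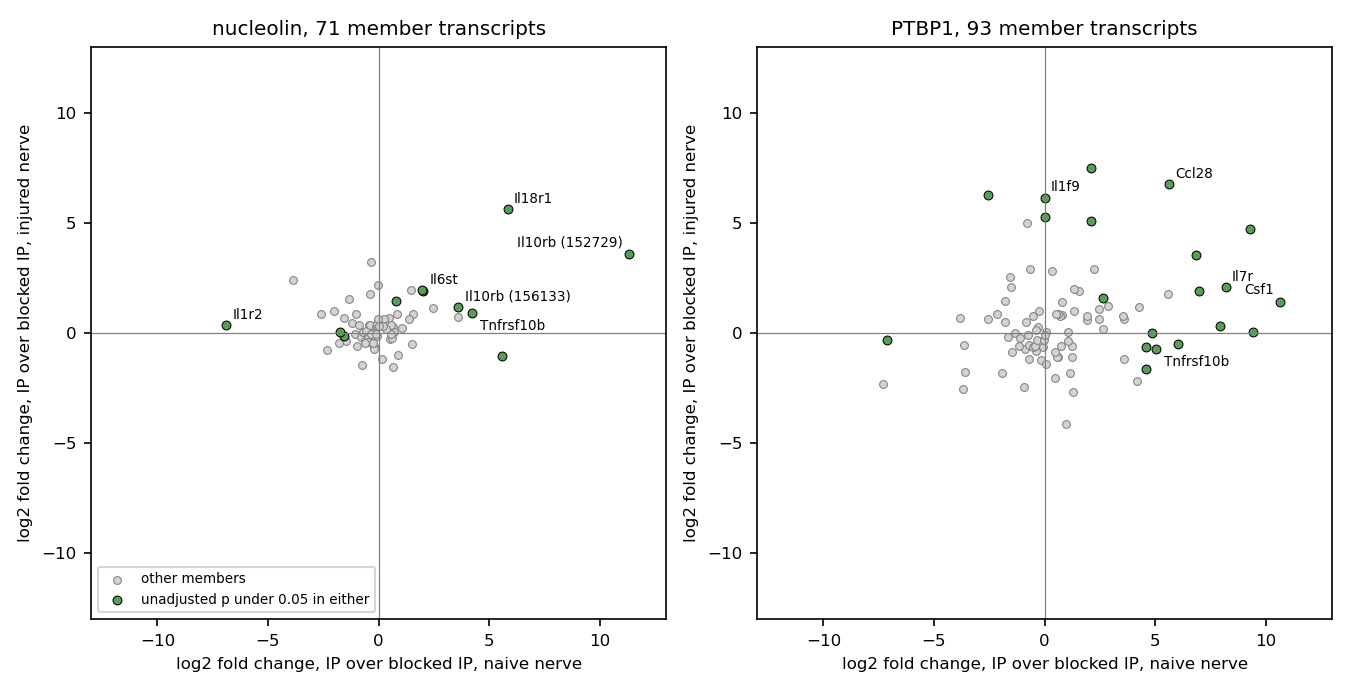
Log2 fold change of IP over blocked IP for each member transcript, in naive nerve (x axis) and injured nerve (y axis), for nucleolin (71 transcripts) and PTBP1 (93). Green points have an unadjusted p under 0.05 in at least 1 condition, none passes the adjusted threshold, and Il6st and Il18r1 lie in the upper right for nucleolin.

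PTBP1 IP against its blocked control gave no member past the threshold either, and none of all 14540 transcripts (0%) in naive nerve, in injured nerve or for their difference. Unadjusted p-values under 0.05 numbered 15, 6 and 8 members, among 1893, 1815 and 1147 transcripts, and DESeq2 called 7, 5 and 3 members. In naive nerve Il7r measured 56.5, 0.279 and 3.30 CPM in the IP against 0.099, 0 and 0.0799 CPM in the blocked IP (log2 fold change 8.19, SE 2.26, edgeR adjusted p = 0.222). The retained-intron Osmr transcript ENSMUST00000177263 measured 14.3, 27.5 and 2.39 CPM against 0.0495, 0 and 0 CPM, 1 count in all (edgeR adjusted p = 0.222). For both, each IP library lay above each blocked one, but the IP libraries differed among themselves by over 10-fold. Osmr ENSMUST00000175862 and Csf1 had no count in the blocked IP and none in naive IP 2, while Tnfrsf10b measured 3.39, 0.0698 and 1.75 CPM against 0, 0.0556 and 0.0799 CPM, so that these groups overlapped (edgeR adjusted p between 0.222 and 0.245).

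In injured nerve the 5 members of lowest p were Cxcl16 ENSMUST00000154475, Ccl28, Il2ra, Il1f9 and Il1rn, with edgeR adjusted p between 0.218 and 0.271, and the IP libraries lay above the blocked ones in each. Ccl28, a chemokine of mucosal epithelia, measured 11.4, 6.42 and 0.726 CPM against 0.0697, 0.091 and 0 CPM, 2 counts in all. Il1f9 measured 44.9, 31.6 and 3.94 CPM against 0.0697, 0.728 and 0.322 CPM (log2 fold change 6.15, SE 2.14). Il1rn measured 5.82, 9.72 and 3.82 CPM against 0.139, 0 and 0.322 CPM (5.27, SE 1.91), and in injured nerve with nucleolin 8.62, 7.26 and 9.77 CPM in the IP against 0, 0.12 and 7.47 CPM in the blocked IP. Il2ra, the high-affinity chain for interleukin 2, measured 56.2, 18.4 and 5.46 CPM against 0.0697, 0 and 0.322 CPM (7.51, SE 2.72). For the difference between conditions the lowest p belonged to Cxcl16 ENSMUST00000154475 (8.83, SE 2.63), Osmr ENSMUST00000175862 (-9.38, SE 3.21), Tnfrsf10b (-5.77, SE 2.13), Il4 (-6.23, SE 2.42) and Il7r (-6.10, SE 2.56), with edgeR adjusted p between 0.541 and 0.583.

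Zero counts accompany these PTBP1 values. In naive blocked libraries 39.4%, 46.8% and 25.5% of the 94 listed members were at 0, against 31.9%, 23.4% and 7.45% in naive PTBP1 IP, and 22.3%, 21.3% and 10.6% against 3.19%, 1.06% and 1.06% in injured nerve. In every group the library numbered 3 had the lowest share at 0 or shared the lowest. For all transcripts of the table the shares ran from 1.64% to 30.4%, and the part of detection in the differences was not tested. Il6st, which had counts in every library, measured 430, 402 and 445 CPM in naive PTBP1 IP against 318, 126 and 287 CPM in the blocked IP, and 713, 553 and 783 CPM against 398, 340 and 430 CPM in injured nerve, each IP library above each blocked one in both conditions.

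The nucleolin tables also list members found in 1 of them only, 33 in the injured table and 5 in the naive table. In all, 104 members were listed in the injured table, 76 in the naive one and 71 in both. Over all transcripts these numbers were 15841, 14181 and 11862. Every listed transcript had at least 5 counts in each library of 1 group of its table. The 33 include Cxcl5, Cxcl3, Il1a, Il1b, Osm, Il10 and Il1rn. Il1b measured 38.8, 52.8 and 34.3 CPM in injured nucleolin IP against 22.7, 49.1 and 33.8 CPM in the blocked IP, and Il1a 20.3, 18.1 and 33.0 CPM against 75.3, 18 and 8.28 CPM, with overlapping groups in both. In a fit of that table alone, the lowest p among these members belonged to Il16 ENSMUST00000151047, at 6.46, 5.87 and 2.48 CPM against no count (edgeR adjusted p = 0.161), and a second Il6st transcript, ENSMUST00000183886, had a log2 fold change of 4.28 (SE 1.24, edgeR adjusted p = 0.28). No gene of the signalling list was called in any IP comparison, 60 being measured with nucleolin and 70 with PTBP1.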

How the data were processed

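The deposited tables hold whole-number counts per Ensembl transcript made by the authors. CASAVA 1.8.2, edgeR, mm10 and GRCm38 are named in the submitters' processing notes. For the aligner, the counting tool, the strand setting and the annotation, nothing is given in the sources used here. Columns were matched to libraries by name, and 114 per-sample columns of no listed sample were not used. The column NA.Nuc.PCP3 was taken as naive blocked nucleolin IP 3. Counts were scaled by TMM and tested with edgeR 4.0.16 (quasi-likelihood, filterByExpr, Benjamini-Hochberg over all transcripts) in R 4.3.3, after tests on simulated data. Nucleolin fits used 12 libraries over the 11862 transcripts of both tables, and members of 1 table came from a fit of that table. Strand being unknown, reads of overlapping genes cannot be told apart. Counting intervals (95%) and floors of 3 counts cover counting error only. Replicates differed by more than sampling noise.

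The members and lists were chosen with earlier results of these data known. Named were a list of classic members, the 12 largest rises and all falls in input, and elsewhere every called member or else the 5 of lowest p; further members were chosen after their values were seen. Coordinates and untranslated regions are from GENCODE M21, which matched 19991 of 20440 identifiers, and promoters from RefSeq. DESeq2 1.42.0, library totals, no filter, a replicate block, fits of the compared libraries alone, leaving out possible ribosomal read sinks and leaving out each library were the alternatives. Some results are not reported here.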

Additional observations from a re-analysis of the deposited data

How the results depend on the processing

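In input the count of called members, 54, stayed within 1.5 times under all 11 alternatives, from 37 with library totals to 58 with DESeq2, and from 40 (without injured library 2) to 51 when each library was left out. The smaller comparisons moved more. For the nucleolin IP, injured against naive (3 called), DESeq2 called 17, the fit of the 6 compared libraries alone 11, and fits without 1 library 0 to 1. For the blocked nucleolin IP (3 called), DESeq2 called 19, the 6 libraries alone 0, and fits without 1 library 0 to 4. For the PTBP1 IP (1 called), DESeq2 called 13 and fits without 1 library 0 to 1. For the blocked PTBP1 IP (1 called), DESeq2 called 33, the 6 libraries alone 0, and fits without 1 library 0 to 1. For nucleolin IP against blocked IP (0 called), DESeq2 called 6 in naive nerve, 1 in injured nerve and 1 for the difference, and fits without 1 library 0 to 2 in naive nerve. For PTBP1 IP against blocked IP (0 called), DESeq2 called 7, 5 and 3. These counts are of members alone, and the shares over all transcripts under each setting are not given. The cause of the differences between settings was not tested. Over the called members and the settings tried for each, 569 results kept the call and direction, 121 kept the direction but lost the call, and 0 reversed. Members not called at first are outside this count, and some of them gained a call in an alternative.

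The replicate numbers are shared across groups, and the pairing was checked by the correlation of same-numbered libraries' deviations from their group means. These were 0.155, 0.0551 and 0.137 in input, 0.28, 0.0975 and 0.495 in the nucleolin IP and 0.142, 0.0212 and 0.263 in the PTBP1 IP, so not every pair passed 0.1 and the libraries were treated as sharing only a number. In all 3 of these comparisons, libraries 1 and 3 correlated best with their own number and library 2 did not. In the other comparisons checked, the only exception was library 1 of nucleolin IP against blocked IP in injured nerve (0.0336 against 0.0562). With the replicate block, 55 members were called in input (53 of the 54 kept, with Ccl8 and Il1r2 added), 9 in the nucleolin IP, 6 in the blocked nucleolin IP and 2 in the blocked PTBP1 IP. Zeros limit the PTBP1 libraries, where up to 46.8% of members had no count.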
